A study of Rattus norvegicus with 8 samples.

Results

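Glutathione S-transferase genes were followed in cultured fetal rat testes exposed to mono-(2-ethylhexyl) phthalate (MEHP), the monoester formed when the plasticizer di-(2-ethylhexyl) phthalate is hydrolysed. The genes were chosen by name: every probe of the array whose gene name was Gsta2, Gsta3, Gsta4, Gstm1, Gstm2, Gstm3, Gstp1, Gstt1, Gstt2 or Mgst1 was taken, which gave 10 genes of 35581 names on the array and 12 probes of 41012. Gsta2 and Gstt2 each had 2 probes and the other 8 genes had 1. Testes of Sprague-Dawley rat fetuses, taken between gestational days 14 and 15, were cultured for 72 h in M199 medium with 1 µM or 10 µM MEHP, and the DMSO vehicle was present in every culture. The 1 µM group held 1 testis and the 10 µM group held 3, each testis being 1 explant, and each was hybridized on 2 two-colour arrays against a single pool of RNA from 3 vehicle-treated testes. The whole explant was measured, so that fewer cells of a type and less RNA per cell cannot be told apart.

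Glutathione S-transferases join the thiol of glutathione to electrophiles and so take part in the clearance of drugs, lipid peroxidation products and other reactive compounds. The soluble enzymes are dimers that fall into classes by sequence. The alpha class (Gsta2, Gsta3, Gsta4), the mu class (Gstm1, Gstm2, Gstm3) and the pi class (Gstp1) are best known, and the theta class (Gstt1, Gstt2) is a more distant one. Mgst1 is unrelated in sequence and sits in membranes of the endoplasmic reticulum and mitochondria, where it is both a transferase and a peroxidase. In the testis, alpha and mu class enzymes are known from steroid-producing and Sertoli cells.

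Some of the names need care. The accession of the Gsta3 probe now belongs to Gsta1, and that of the Gstm3 probe to Gstm7, so that 2 of the 11 probes matched by accession carry another symbol today. The accession of the Gsta4 probe was not matched and its promoter was taken by symbol. Genes of 1 class are close in sequence, the probe sequences were not used here, and a signal may include a paralogue. The array names are kept.

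The letters before the start of some of these genes were read to show what lies at their promoters. RefSeq (GRCr8) gave 250-base windows upstream of the start for 8 of the 10 genes, and the promoters shown are those of Gsta4, Gstm1, Gstp1 and Mgst1, taken from the alpha, mu and pi classes and the microsomal enzyme and all with a value below 0 in every testis at 10 µM. They lie at chr8:87947015-87947264 on the plus strand, chr2:198343384-198343633 on the minus strand, chr1:210769706-210769955 on the minus strand and chr4:172760680-172760929 on the plus strand, and each is written 5′ to 3′ in the direction of its gene. Capitals mark the core of the antioxidant response element, TGACNNNGC, searched on both strands.
Gsta4: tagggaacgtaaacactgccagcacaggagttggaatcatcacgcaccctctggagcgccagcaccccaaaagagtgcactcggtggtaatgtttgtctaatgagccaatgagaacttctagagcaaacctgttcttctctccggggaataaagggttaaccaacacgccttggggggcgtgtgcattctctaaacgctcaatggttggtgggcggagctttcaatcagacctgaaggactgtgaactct
Gstm1: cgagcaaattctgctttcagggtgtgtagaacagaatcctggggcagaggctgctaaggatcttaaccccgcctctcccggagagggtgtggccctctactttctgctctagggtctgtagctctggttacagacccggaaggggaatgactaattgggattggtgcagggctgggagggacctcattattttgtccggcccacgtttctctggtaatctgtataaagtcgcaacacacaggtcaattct
Gstp1: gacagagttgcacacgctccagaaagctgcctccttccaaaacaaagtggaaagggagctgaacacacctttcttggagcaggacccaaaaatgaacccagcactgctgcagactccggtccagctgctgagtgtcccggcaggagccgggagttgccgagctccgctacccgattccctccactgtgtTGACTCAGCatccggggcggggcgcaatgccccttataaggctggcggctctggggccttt
Mgst1: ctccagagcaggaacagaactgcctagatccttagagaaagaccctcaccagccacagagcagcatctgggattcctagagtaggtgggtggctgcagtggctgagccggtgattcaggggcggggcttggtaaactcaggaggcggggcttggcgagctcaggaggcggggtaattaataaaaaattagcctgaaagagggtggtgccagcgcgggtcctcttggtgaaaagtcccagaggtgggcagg
The core was present in 2 of the 8 windows, against 10.1% of the 33469 windows of this length in the table. In Gstp1 it began at position −61, counted back from the start, and the same letters include TGACTCA, the sequence bound by AP-1. The other match was in the window of Gstm7, which is the current symbol for the accession of the Gstm3 probe, and began at position −14. The windows of Gsta2, Gsta1, Gsta4, Gstm1, Gstm2 and Mgst1 held no match, which says only that these letters were not in these windows.

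Values are log2 ratios of MEHP over vehicle, so that −1 is a halving of the signal, and the value of a testis is the mean of its 2 arrays. MEHP was taken to be in Cy3 on the first array of each testis and in Cy5 on the repeat. This direction is likely and not certain, because the labels put MEHP in Cy3 on all 8 arrays while the methods state that the dyes were swapped within each pair. Were the order the other way round in a pair, the sign of every value of that testis would turn. Were MEHP in Cy3 on both arrays of a pair, as labelled, only the repeat array would turn, and the mean of that testis would change. Correlations between arrays were taken over 4777 probes that were well above background on most arrays in the channel taken as vehicle. Between first arrays the vehicle channels had r from 0.972 to 0.994, and between repeats from 0.942 to 0.986. Those taken as MEHP had r from 0.655 to 0.935 and from 0.742 to 0.971. Without testis 2 at 10 µM the MEHP values ran from 0.869 to 0.935 and from 0.914 to 0.971. The vehicle values then ran from 0.978 to 0.994 and from 0.953 to 0.986. Choosing probes by the vehicle channel favours that channel, so these values do not settle the direction. Between the 2 arrays of a testis the turned ratios of all tested probes correlated with r = 0.225, 0.535 and 0.399 in the 3 testes at 10 µM, but with r = −0.162 in the testis at 1 µM.

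The second testis at 10 µM stood apart. Its MEHP channel was well above background, by the flag of the image software, for 0.249% and 1.54% of probes on its 2 arrays, against 7.8% to 29.8% on the other 6 arrays. Over the 9913 probes tested at 10 µM, the median ratio of testis 1 was 0.0904, that of testis 2 −1.13 and that of testis 3 −0.199. Among the 12 transferase probes, the MEHP channel of testis 2 was well above background in 1 of 24 measurements and was replaced by the surrogate that the software puts in place of a signal too low to measure in 16 of 24. In the other 3 testes these counts were 41 and 8 of 72. Values at 10 µM without testis 2 are therefore given beside those with it.

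**Figure D1:**
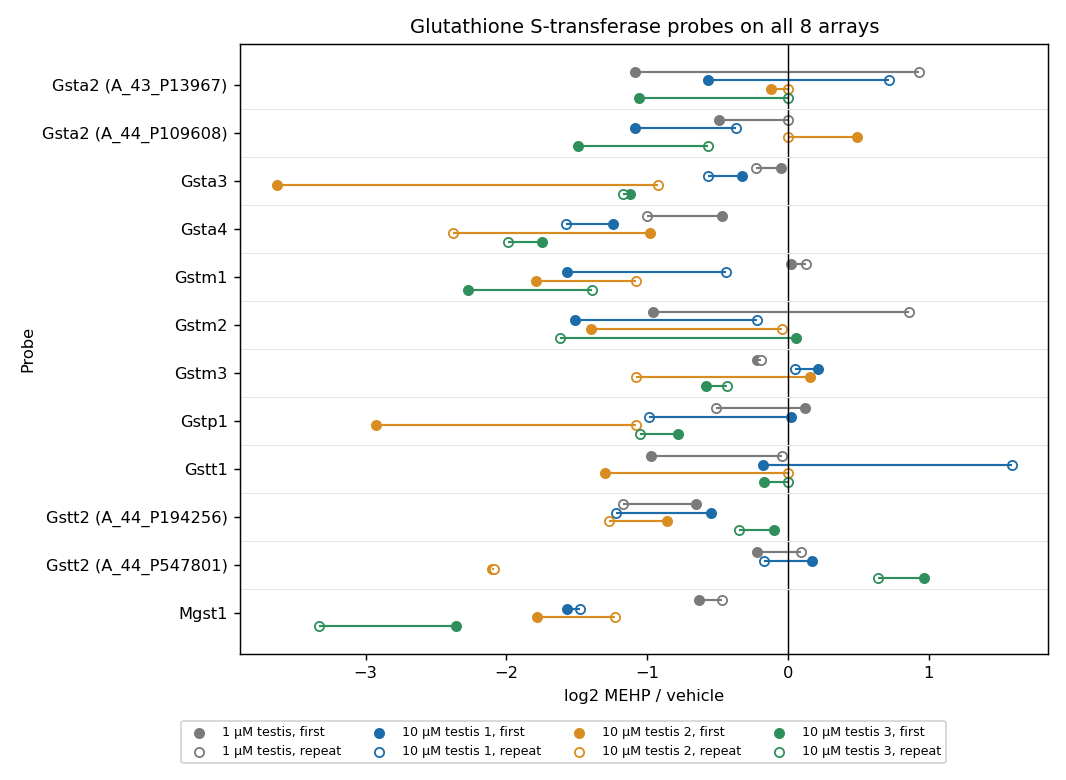
Log2 ratio of MEHP over vehicle (horizontal axis) for the 12 glutathione S-transferase probes (vertical axis) on all 8 arrays; filled points are the first hybridization and open points the repeat, joined for each testis. Mgst1, Gsta4, Gstm1, Gsta3 and the Gstt2 probe A_44_P194256 lie below 0 on all 6 arrays at 10 µM. Gstt1 and the Gstt2 probe A_44_P547801 lie on both sides of 0.

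At 10 µM, 10 of the 12 probes were bright enough to be tested, and 1 of them, Mgst1, was lower in the MEHP testes. A probe was tested at 10 µM when, on 3 or more arrays, its MEHP or its vehicle channel cleared background well. Of the 10, 5 (Gstm1, Gstm2, Gstt1, the Gstt2 probe A_44_P194256 and Mgst1) cleared it in the MEHP channel on fewer arrays than that and were tested on the strength of vehicle alone, which favours probes that are lower with MEHP, so the counts over the 10 are a description. Of all 9913 probes tested, 2.24% passed the same threshold in either direction and 1.87% were lower. The test was limma's moderated test of the 3 testes against 0, with p-values adjusted by Benjamini-Hochberg over every probe tested and a threshold of 0.05. Without testis 2, 3 of the 10 probes were lower (Gsta4, Gstm1 and Mgst1), but so were 9.85% of all probes, and none of the 10 was higher against 7.45% of all. At an unadjusted p under 0.05, 5 of the 10 passed with all 3 testes, against 17.6% of all tested probes. The median of the 3-testis means over all tested probes was −0.42. The testes did not share it evenly, with medians of 0.0904, −1.13 and −0.199 in testes 1, 2 and 3. Such shifts enter the mean of each probe. With each array centred on its own median the split of all calls went from 37 higher and 185 lower to 55 higher and 51 lower.

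Mgst1, the microsomal enzyme, had log2 ratios of −1.57 and −1.48 in testis 1, −1.78 and −1.23 in testis 2, and −2.36 and −3.33 in testis 3. All 6 arrays were below 0, and testis 3 was the lowest on both of its arrays. The mean was −1.96 ± 0.77 (SD, n = 3), a 3.88-fold lower level, with an adjusted p of 0.0395 by limma. The vehicle signal of this probe ran from 347 to 1640 on the 6 arrays and the MEHP signal from 83.8 to 475. On 1 of the 6 arrays the MEHP channel of the probe cleared background well, and on 4 the vehicle channel did. The MEHP signal was a surrogate on 2, so the size of the fall rests on dim values. The limma call was lost when each array was centred (−1.5, adjusted p = 0.0688). It was also lost, at an adjusted p of 0.0516 by limma, under an alternative added after the data were seen, in which any 1 spot of a probe had to be well above background and an array without a value was allowed. With another background correction (normexp) and loess the mean was −0.28 (limma adjusted p = 0.332). Without testis 2 it was −2.18, with a limma adjusted p of 0.00883. Without testis 1 or without testis 3, the limma adjusted p was 0.264 and 0.851.

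Gsta4 codes for the alpha enzyme best known for its action on 4-hydroxynonenal, a product of lipid peroxidation. Its log2 ratios were −1.24 and −1.58 in testis 1, −0.98 and −2.38 in testis 2, and −1.75 and −1.99 in testis 3. All 6 arrays were again below 0 and the 3 testes lay close together, at −1.41, −1.68 and −1.87. The mean of −1.65 ± 0.23 (SD, n = 3) did not pass the threshold (limma adjusted p = 0.0802). Without testis 2 the mean was −1.64 and the limma adjusted p 0.0134. The vehicle channel cleared background well on all 6 arrays and the MEHP channel on 3, with vehicle signals from 913 to 2960 and MEHP signals from 175 to 1500.

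The Gsta3 probe was detected with vehicle on all 8 arrays, with signals from 4600 to 28100 over the 8 arrays. Its testis values at 10 µM were −0.45, −2.27 and −1.14, all below 0, and testis 2 lay far below the others. In that testis the 2 arrays gave −3.63 and −0.92, the first of them with a surrogate MEHP signal. The mean was −1.29 ± 0.92 (SD, n = 3; limma adjusted p = 0.192), and without testis 2 it was −0.80 (limma adjusted p = 0.133).

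Both Gsta2 probes were too dim to test. At 10 µM the MEHP channel cleared background well on none of the 6 arrays, and the vehicle channel on 1 for each probe. The 2 probes gave testis values of 0.07, −0.06 and −0.53, and of −0.73, 0.25 and −1.03. No fold is given for them, since both channels were close to background.

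Of the Gstm1, Gstm2 and Gstm3 probes, Gstm1 had the lowest mean. Its ratios were −1.57 and −0.44 in testis 1, −1.79 and −1.08 in testis 2, and −2.27 and −1.39 in testis 3. All 6 arrays were below 0, and in each testis the first array was the lower. The mean of −1.42 ± 0.41 (SD, n = 3) did not pass (limma adjusted p = 0.136), and the same mean of −1.42 without testis 2 did (limma adjusted p = 0.0229). The MEHP channel cleared background well on 2 of the 6 arrays and the vehicle channel on 4.

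The Gstm2 probe had testis values of −0.86, −0.72 and −0.78, the closest together of the tested probes, averaging −0.79 ± 0.07 (SD, n = 3; adjusted p = 0.472, limma) and −0.82 without testis 2 (limma adjusted p = 0.11). The arrays behind them did not lie close together. In testis 3 they were 0.06 and −1.62, and in testis 1 −1.51 and −0.22. The MEHP channel was not well above background at any of the 6 hybridizations and the vehicle channel was at 3, so no fold can be given.

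The Gstm3 probe, detected with vehicle on 5 of the 6 arrays, had values of 0.13, −0.46 and −0.51, averaging −0.28 ± 0.35 (SD, n = 3; adjusted p = 0.85, limma) and −0.19 without testis 2 (limma adjusted p = 0.735). Testis 1 was above 0 and the other two below. With the arrays centred the mean was 0.17, so its direction turned.

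Gstp1, the pi enzyme, had testis values of −0.48, −2.01 and −0.92. Testis 2 was again the lowest, and on its first array the MEHP signal was a surrogate. The mean was −1.13 ± 0.78 (SD, n = 3; limma adjusted p = 0.266), and without testis 2 it was −0.70 (limma adjusted p = 0.172). The array holds another pi class probe under the name Gstp2, an older synonym of Gstp1 in the gene table. That probe gave 0.29, −0.05 and 0.96 in the 3 testes, averaging 0.40 ± 0.52 (SD, n = 3; adjusted p = 0.763, limma) and 0.63 without testis 2 (limma adjusted p = 0.231). The 2 pi probes thus differed in sign. Gstp2 was named after its values were seen.

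The theta genes showed no shared direction. Gstt1, detected with MEHP on 2 and with vehicle on 3 of the 6 arrays, had values of 0.71, −0.65 and −0.09, averaging −0.01 ± 0.68 (SD, n = 3; adjusted p = 0.996, limma) and 0.31 without testis 2 (limma adjusted p = 0.571). The 2 probes of Gstt2 share an accession and did not give the same picture. One (A_44_P194256) had −0.88, −1.07 and −0.23, all below 0, averaging −0.73 ± 0.44 (SD, n = 3; adjusted p = 0.514, limma) and −0.56 without testis 2 (limma adjusted p = 0.286). The other (A_44_P547801), had 0.00, −2.10 and 0.81, averaging −0.43 ± 1.5 (SD, n = 3; adjusted p = 0.747, limma) and 0.40 without testis 2 (limma adjusted p = 0.45). In testis 3 this probe was 0.97 and 0.64 on the 2 arrays, the only member at least 1.5-fold higher on both arrays of any testis.

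**Figure D2:**
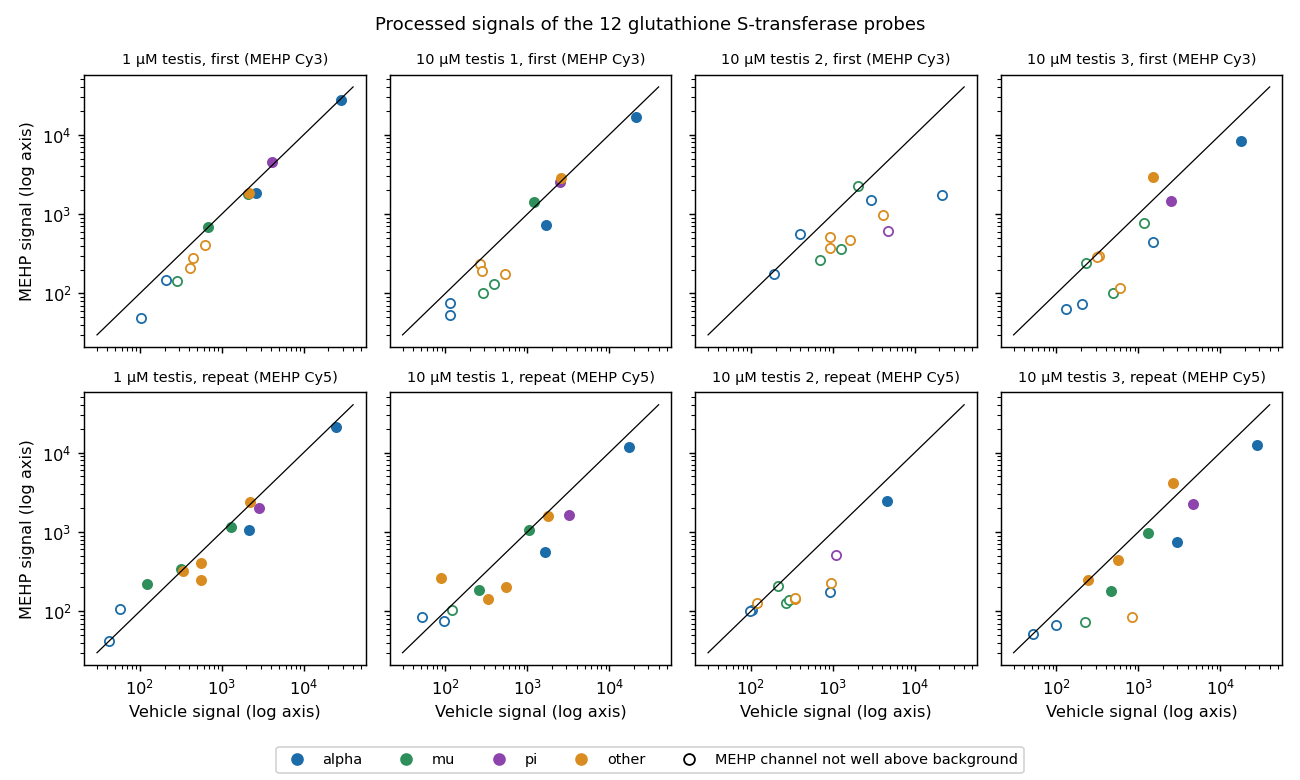
Processed signal of the MEHP channel (vertical, log axis) against the vehicle channel (horizontal, log axis) for the 12 probes on each array, coloured by class; the line marks equal signals and open points are probes whose MEHP channel was not well above background. On both arrays of the second testis at 10 µM nearly all points are open, and 1 of 24 is filled.

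Detection of these probes went with the dye. With vehicle in Cy5, on the first arrays, 43 of 48 measurements of the 12 probes were well above background, and with vehicle in Cy3, on the repeats, 22 of 48 were. For MEHP the counts were 28 of 48 in Cy5 and 14 of 48 in Cy3. Without testis 2 the 4 counts were 33, 18, 27 and 14 of 36. In both sets each RNA had the higher count in Cy5, and in each dye vehicle had the higher count. The share of the dye in the ratios was not tested beyond averaging the 2 arrays of a testis.

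Taken testis by testis, with a change counted where both arrays passed 1.5-fold in 1 direction, 2 of the 10 probes tested at 10 µM were lower in testis 1 (Gsta4 and Mgst1) and none was higher, against 9.98% and 13.3% of all tested probes. In testis 2, 7 were lower and none higher, against 48.4% and 1.92% of all. In testis 3, 5 were lower (Gsta3, Gsta4, Gstm1, Gstp1 and Mgst1) and 1 was higher (Gstt2), against 21.4% and 12.3% of all. Gsta4 and Mgst1 were lower by this count in all 3 testes. The value was below 0 in all 3 testes for 7 of the 12 probes, all 7 among the 10 tested, against 36.2% of all tested probes.

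The classes were compared by their medians over all probes, with no test. In testes 1, 2 and 3 at 10 µM the medians were −0.59, −0.87 and −1.08 for the 4 alpha probes, −0.86, −0.72 and −0.78 for the 3 mu probes, −0.48, −2.01 and −0.92 for the single pi probe, and −0.44, −1.29 and −0.16 for the 4 theta and microsomal probes. In testes 1 and 3, the alpha, mu and pi medians lay below the median of all tested probes. In testis 2 that median was −1.13. In none of the 3 testes can the alpha and mu medians be read against it. The alpha median takes in both Gsta2 probes and the mu median is the Gstm2 probe in each testis. At 10 µM the MEHP channels of these probes were never well above background. The 2 tested alpha probes had a median of −1.98 in testis 2, and of −0.93 and −1.51 in testes 1 and 3. The order of the classes differed between the 3 testes, and in each testis at 10 µM the ranges of the alpha, mu and other probes overlapped. The spread within a class was wide: the means ran from −1.65 to −0.17 in alpha, from −1.42 to −0.28 in mu, and from −1.96 to −0.01 among the theta and microsomal probes.

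**Figure D3:**
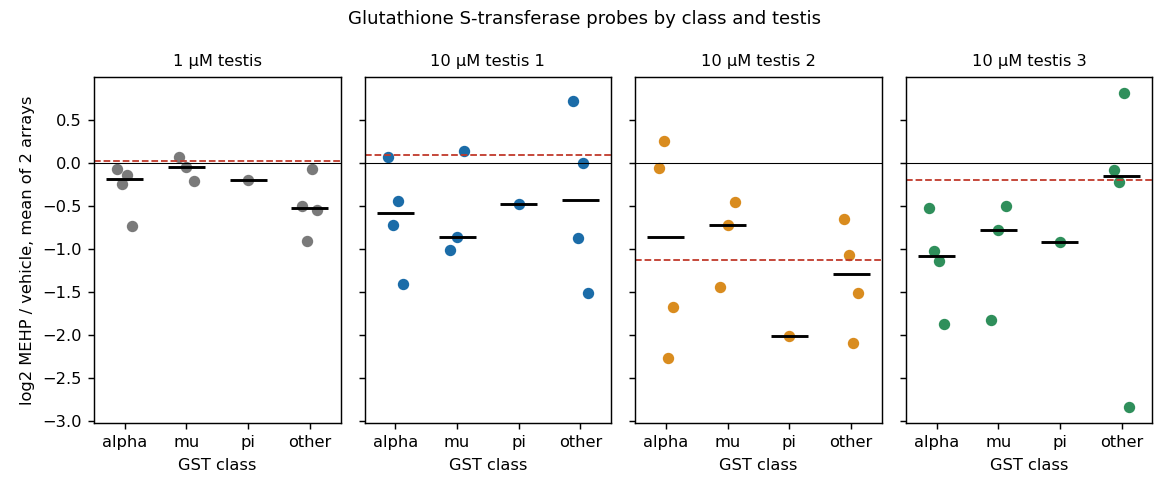
Log2 ratio of MEHP over vehicle, mean of 2 arrays (vertical axis), for each probe by class (horizontal axis) in the 4 testes; black bars are class medians and the dashed line is the median of all probes tested at that dose. The dashed line falls to −1.13 in the second testis at 10 µM. In each testis at 10 µM the alpha bar takes in the Gsta2 probes and the mu bar is the Gstm2 probe. These probes were at background with MEHP.

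At 1 µM, 11 of the 12 probes could be examined, in 1 testis and with no test. By the count of 1.5-fold on both arrays, 1 probe was lower and none was higher, against 2.96% and 4.05% of the 13174 probes examined. The lower one was a Gstt2 probe (A_44_P194256), at −0.65 and −1.17. Gsta4 had −0.47 and −1.0, and Mgst1 −0.63 and −0.47, all below 0 as at 10 µM but each short of that limit on 1 array. Gstm1 had 0.02 and 0.13, at or just above 0. The Gstm2 probe went opposite ways on its 2 arrays, at −0.96 and 0.86. So did 2541 of the 13174 probes at the 1.5-fold limit, against 390 lower and 534 higher on both arrays. Calls at 1 µM, here and below, thus come from 2 arrays that passed the limit more often in opposite directions than in 1. The class medians were −0.19 for alpha, −0.05 for mu, −0.20 for pi and −0.53 for the theta and microsomal probes, and the median of all probes was 0.0178.

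Values at 10 µM and 1 µM were set against each other in 1 limma fit over the 4 testes, which assumes that the lone testis at 1 µM varies like those at 10 µM. Of the 10 transferase probes tested at both doses, none passed the adjusted threshold and none had an unadjusted p under 0.05 by limma, and of all 9785 probes none passed while 26 had such a p. Differences of 10 µM minus 1 µM ran from −1.5 for Gstm1 (limma adjusted p = 1, unadjusted p = 0.184) to 0.50 for Gstt1. For Mgst1 the difference was −1.41 (limma unadjusted p = 0.211), and for Gsta4 −0.92 (limma unadjusted p = 0.416). A fit with 1 testis at a dose bounds these differences only loosely.

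The other transferases on the array, and the genes and markers below, were examined by 1 probe of each gene. Where a gene had several, the probe with the highest mean vehicle signal was used, a choice that favours probes high with vehicle. Of 13 genes found, 6 were tested at 10 µM, and 2 of these, Mgst2 and Gstm5, were lower. Of all tested probes, 1.87% were lower with all 3 testes and 9.85% without testis 2. Mgst2, a microsomal enzyme that can make leukotriene C4 and is named on the array as a prediction, had −1.99, −2.31 and −2.88 in the 3 testes, averaging −2.39 ± 0.45 (SD, n = 3; adjusted p = 0.0123, limma) and −2.43 without testis 2 (limma adjusted p = 0.00568). Gstm5, a mu enzyme, had −2.06, −1.59 and −1.97, averaging −1.88 ± 0.25 (SD, n = 3; adjusted p = 0.0459, limma) and −2.02 without testis 2 (limma adjusted p = 0.00729). Both were also lower at 1 µM, with −0.81 and −0.66 for Mgst2 and −0.75 and −1.05 for Gstm5, against 2.96% of all probes examined. At 10 µM the MEHP channel cleared background well on 3 of the 6 arrays for Mgst2 and on 2 for Gstm5. Gstm5 was thus tested on the strength of vehicle. No other gene of this list was called. Among those, named after their values were seen, Gsto1 was at −1.12 ± 1.18, Mgst3 at −0.99 ± 0.76 and Gstk1 at −0.04 ± 0.74 (SD, n = 3). Without testis 2 these 3 were at −0.45, −0.61 and 0.37, and again none was called.

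The enzymes that make and recycle glutathione were mostly dim or small in their values. Of 20 genes of that list on the array, 10 were tested at 10 µM and none was called with all 3 testes by limma. Without testis 2, 1 was lower: Idh1, an isocitrate dehydrogenase that makes NADPH, at −1.64 (limma adjusted p = 0.0166). With all 3 testes Idh1 was at −1.48 (limma adjusted p = 0.125). Of all tested probes, 9.85% were lower without testis 2. At 10 µM the MEHP channel of Idh1 cleared background well on 2 arrays. Idh1 was thus tested on the strength of vehicle, which favours probes that are lower with MEHP. Gclc and Gclm, the 2 subunits of the rate-limiting ligase, were not well above background in vehicle on any array. Gss, glutathione synthetase, was at −0.31 ± 0.39 (SD, n = 3; limma adjusted p = 0.828) and at −0.09 without testis 2 (limma adjusted p = 0.881). Gsr, glutathione reductase, could be examined only at 1 µM, where it was −0.61 and −0.41.

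Among 5 tested peroxidases of the glutathione and thiol families, Prdx1 was lower and no other was called. Of all tested probes, 1.87% were lower with all 3 testes and 9.85% without testis 2. Prdx1, a peroxiredoxin that reduces hydrogen peroxide, had −1.01, −3.49 and −1.77, averaging −2.09 ± 1.27 (SD, n = 3; adjusted p = 0.0308, limma), and −1.39 without testis 2 (limma adjusted p = 0.0237). Gpx1, the cytosolic glutathione peroxidase, was at −1.08, 0.49 and −0.78, averaging −0.46 ± 0.83 (SD, n = 3; adjusted p = 0.721, limma). Testis 2 was the only one above 0, and without it the mean was −0.93 (limma adjusted p = 0.0778).

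NRF2, encoded by Nfe2l2, is the factor that binds antioxidant response elements, and KEAP1 holds it back. Of 14 tested genes of the NRF2 list, 1 was lower and none higher at 10 µM: Aldh1a1, a retinal dehydrogenase, at −2.58, −2.53 and −2.57 (mean −2.56 ± 0.03, SD, n = 3; limma adjusted p = 0.00578). Without testis 2 it was at −2.58 (limma adjusted p = 0.00397), and with normexp and loess at −0.69 (limma adjusted p = 0.287). With all 3 testes, 1.87% of all tested probes were lower. Nfe2l2 itself had −1.83, −2.07 and −1.39, averaging −1.76 ± 0.34 (SD, n = 3; adjusted p = 0.0601, limma), and it passed the threshold without testis 2, at −1.61 (limma adjusted p = 0.0143). It was also lower at 1 µM by the 1.5-fold count, at −0.75 and −0.69. Ftl1, the ferritin light chain, was higher at 1 µM, at 0.59 and 0.71. Keap1 was examined only at 1 µM, where its 2 arrays gave −1.55 and 0.39. Without testis 2, 4 of the 14 were lower (Aldh1a1, Nfe2l2, Akr7a3 and Fth1) and none higher. Of all probes, 9.85% were lower and 7.45% higher, as given above. At 10 µM the MEHP channel cleared background well on 2 arrays for Aldh1a1, Nfe2l2 and Akr7a3, and on 4 for Fth1. Aldh1a1, Nfe2l2 and Akr7a3 were thus tested on the strength of vehicle, which favours probes that are lower with MEHP.

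Export of glutathione conjugates was covered by 4 tested genes, and none was called at 10 µM. Abcc5, a transporter of organic anions and cyclic nucleotides, had 0.98, −2.13 and 1.17, with testis 2 opposite to the others. Without testis 2 its mean was 1.08 (limma adjusted p = 0.0474), and at 1 µM it was higher, at 0.75 and 1.03. Of all tested probes, 7.45% were higher without testis 2. The medians of the means over tested genes were −1.06 for the other transferases, −0.59 for synthesis and recycling, −1.05 for the peroxidases, −1.09 for the NRF2 list and 0.01 for export.

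**Figure D4:**
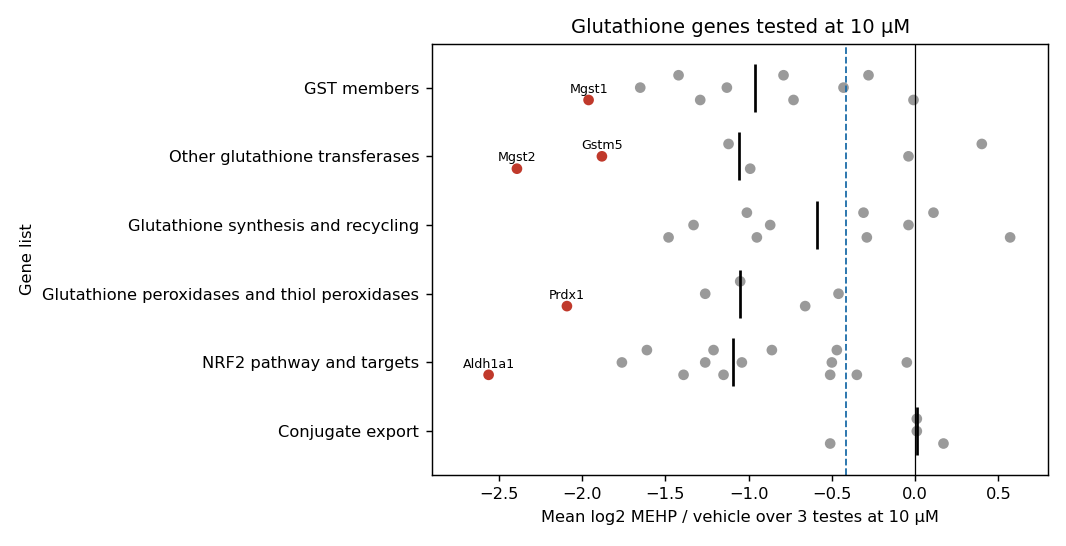
Mean log2 ratio of MEHP over vehicle in the 3 testes at 10 µM (horizontal axis) for each tested gene or transferase probe, by list (vertical axis); red points passed the adjusted threshold and are named, black bars are list medians, and the dashed line is the median of all tested probes at −0.42. All named points, from Aldh1a1 at −2.56 to Gstm5 at −1.88, lie on the lower side.

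Markers of testicular cells were measured on the same arrays. Among vehicle channels, all 6 Sertoli markers and 5 of 7 Leydig markers were well above background on at least 1 array, Nr5a1 and Lhcgr being the Leydig markers that were not, and of 5 germ cell markers only Ddx4 was. At 10 µM the summed signal of the Leydig markers ran from 1610 to 8420 with vehicle and from 885 to 2740 with MEHP, and that of the Sertoli markers from 3210 to 17000 and from 1120 to 10400. Without testis 2 the MEHP sums ran from 1030 to 2110 for the Leydig and from 5350 to 10400 for the Sertoli markers. The vehicle ranges still include the arrays of testis 2, so these ranges cover unlike sets of arrays. Cyp17a1, an androgen-forming enzyme of Leydig cells, was lower at 10 µM (−1.96, limma adjusted p = 0.0394) and was the only one of 15 tested markers called. Without testis 2 it was at −2.14 (limma adjusted p = 0.00668), and 4 more were called lower: Insl3, Dhh, Cdh1 and Lyz, with limma adjusted p from 0.0149 to 0.0418. Of all tested probes, 1.87% were lower with every testis and 9.85% without testis 2. At 10 µM the MEHP channel cleared background well on 2 of the 6 arrays for Cyp17a1 and on 0 for Dhh and Lyz. These markers were thus tested on the strength of vehicle. At 1 µM, Cyp17a1, Insl3, Dhh and Cdh1 were lower and Star and Cyp11a1 higher by the 1.5-fold count, against 2.96% and 4.05% of all probes examined. The part of cell numbers in the transferase values was not tested.

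The means of the transferase probes depended on how background was treated. The deposited ratios gave −1.96 for Mgst1, −1.65 for Gsta4 and −1.42 for Gstm1. The raw signals with normexp and loess gave −0.28, −0.49 and −0.25, and loess with no background correction gave −0.24, −0.50 and −0.19. These 3 probes were below 0 under all 4 treatments shown, as were Gsta3, Gstp1 and the Gstt2 probe A_44_P194256, while the other 6 probes changed sign under at least 1.

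**Figure D5:**
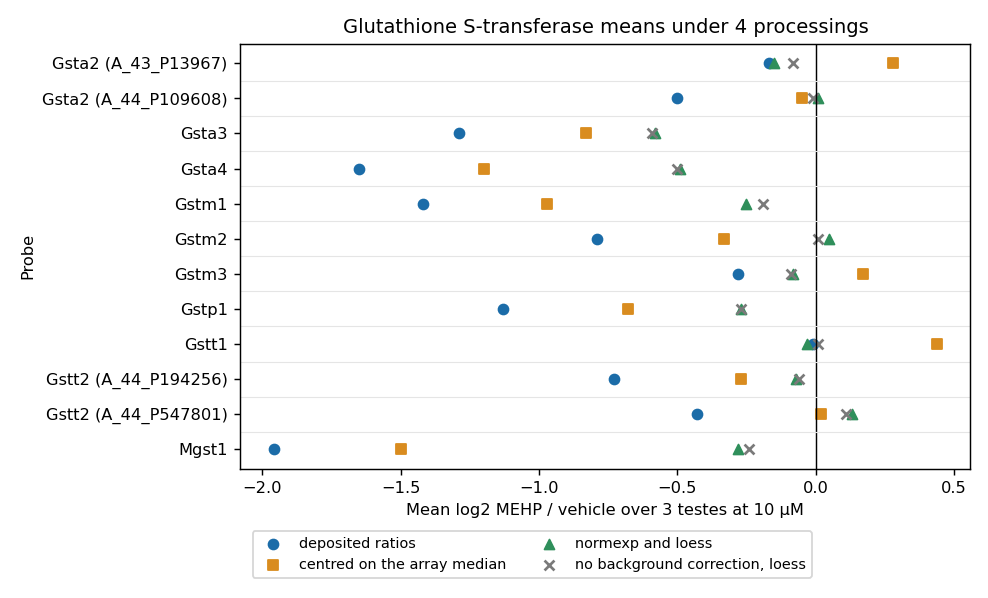
Mean log2 ratio of MEHP over vehicle over the 3 testes at 10 µM (horizontal axis) for each of the 12 probes (vertical axis) under 4 treatments of the arrays. Values from the raw signals with loess lie nearer to 0, between −0.59 and 0.13, than the deposited ratios, which reach −1.96 for Mgst1.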

How the data were processed

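RNA of 4 MEHP-treated fetal testes was compared with a pool of 3 vehicle-treated testes on 8 Agilent Whole Rat Genome arrays, 2 per testis with the dyes swapped. Scans were quantified by the authors in Agilent Feature Extraction (9.1 in the labels), and they deposited for each spot the log10 ratio of red over green after background subtraction and dye normalization, with its error on the log10 scale. The deposited intensity values are the mean, local background and processed signals per channel. Flags for outlier spots, for spots well above background and for surrogate signals came with them. The 2 deposited lists of fold changes and p-values are the authors' own comparisons and were not used.

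Ratios were converted to log2 and turned so that they read MEHP over vehicle. Control and outlier spots were dropped, and repeated spots averaged per probe. A probe was tested if at least 50% of its spots were well above background in 1 channel on 3 of 6 arrays at 10 µM (1 of 2 at 1 µM), with a value on every array of the dose. The 2 arrays of a testis were averaged, and the moderated test of limma (3.58.1, in R 4.3.3, files read by data.table at version 1.17.8) was run on the 3 testes against 0, adjusted by Benjamini-Hochberg over all tested probes at 0.05. The pool is 1 control sample, so the test leaves out the spread of controls, and p-values measure the spread between testes. The number of arrays limits the precision. At 1 µM a change was 1.5-fold in 1 direction on both arrays. The fit was tested on simulated data. Python 3.11.15 with matplotlib 3.10.9 made the figures. Of 41012 probes, 10735 were matched by accession to a list of RefSeq genes (assembly GRCr8) used for names.

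The members and gene lists were chosen with earlier results of these data known. Named were all member probes, each listed gene called at 10 µM or changed at 1 µM, and Gpx1, Gclc, Gclm, Gss, Gsr, Nfe2l2 and Keap1 where measured. The listed cell type markers were those of Sertoli, Leydig, germ, peritubular, mesonephric, blood, endothelial and macrophage cells. Arrays of testes 1 and 2 at 10 µM shared 1 slide, and testis 3 shared the other with the 1 µM testis.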

Additional observations from a re-analysis of the deposited data

How the results depend on the processing

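With all 3 testes and the deposited ratios, 1 of 10 transferase probes and 222 of 9913 probes were called at 10 µM. The counts fell to 0 and 0 with normexp and loess, with loess alone, without the filter on dim probes, with the first hybridizations only, with 6 arrays and the testis as a random block, with the slide as a block, and with the control pool given the spread of the testes, where 2, 3, 4, 3, 5, 3 and 0 of the transferase probes had an unadjusted p under 0.05 by limma, against 16.6%, 16.1%, 5.94%, 29.3%, 17.0%, 9.46% and 0.545% of all probes. Without the filter 12 transferase probes were tested. They were 0 and 106 with centred arrays (4 transferase probes at an unadjusted p under 0.05 by limma, against 23.3% of all), 0 of 3 and 6 of 2651 where both channels had to be well above background on testes 1 and 3, a choice that leaves Mgst1 untested, 1 and 124 with a trend in eBayes, 2 and 230 with the repeats only (Gsta4 and Mgst1), and 0 and 142 with any 1 spot well above background and a missing array allowed, an alternative added after seeing the data. The error-weighted mean over arrays, which leaves out the spread between testes, gave 8 and 5701. Leaving out 1 testis gave 0 to 3 transferase probes and 0 to 1715 probes in all: 3 and 1715 without testis 2, and 0 and 0 without testis 1 or 3. Keeping outlier spots gave 1 and 227. The cause of these differences was not tested.

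At 1 µM the count of 1 went to 0 with normexp and loess, with loess alone, with centred arrays and at a 2-fold limit. Between the doses it stayed at 0 under all 5 alternatives run.

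Class medians at 10 µM were −0.90 (alpha), −0.79 (mu), −1.13 (pi) and −0.58 (others). With normexp and loess they were −0.32, −0.08, −0.27 and −0.05, and with centred arrays −0.44, −0.33, −0.68 and −0.12. With 1 probe per gene, that with the highest mean vehicle signal, alpha was −1.29. Leaving out 1 testis gave −1.05 to −0.80 for alpha, −0.82 to −0.75 for mu, −1.46 to −0.70 for pi and −1.01 to −0.12 for the others.

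Single probes turned their sign as follows at 10 µM. With normexp and loess Gstm2 was 0.05 and Gstt2 (A_44_P547801) 0.13, and with loess alone Gstm2 was 0.01, Gstt1 0.01 and that Gstt2 probe 0.11. Centring gave 0.17 for Gstm3, 0.44 for Gstt1, 0.02 for that Gstt2 probe and 0.14 for Gss. The first hybridizations gave −0.07 for Gstp2 and −0.38 for Abcc5, and the repeats 0.53 for Gstt1 and 0.03 for Gss. The error-weighted mean of that Gstt2 probe was 0.32. Leaving out 1 testis gave −0.37 to 0.31 for Gstt1, −0.57 to 1.08 for Abcc5 and −1.05 to 0.40 for that Gstt2 probe. For 10 µM minus 1 µM, centring gave 0.43 for Gstm3 and 0.14 for that Gstt2 probe, and normexp with loess gave 0.06 for Gstm2, 0.01 for Gstm3, −0.05 for A_44_P194256 and 0.24 for A_44_P547801. Leaving out 1 testis gave differences of −0.28 to 0.04 for Gstm3, −0.98 to 0.47 for A_44_P547801 and −0.07 to 0.35 for A_44_P194256. Of 361 values for named probes under an alternative, 29 turned sign, 54 lost and 15 gained the threshold, and 263 did neither.

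Mgst2, Gstm5, Prdx1 and Aldh1a1 stayed below 0 under every alternative run on them, and each lost its call with normexp and loess, loess alone, no filter, first hybridizations only, the random block, the slide block, the spread of the pool, and without testis 1 or 3. Gstm5, Mgst2 and Prdx1 also lost it with a trend in eBayes, Gstm5 and Prdx1 with centred arrays, Gstm5 with any 1 spot bright and Prdx1 with both channels bright. No paired analysis was possible because the groups share fewer than 2 replicate numbers. Signals near background also limit these results: MEHP was well above it on 0 to 5 of 6 arrays at 10 µM for the 12 probes.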
